A study of Homo sapiens with 6 samples.

Results

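Matrix metalloproteinases were followed in A2780 cells with and without CDK12, with the cluster of these genes on chromosome 11q22 at the centre. The set holds 10 genes of the 60483 in the count table: MMP1, MMP3, MMP10, WTAPP1 and MMP13 from 11q22, and MMP2, MMP14, MMP15, MMP16 and MMP24 from elsewhere. They were found by matching Ensembl identifiers, without their version, to these symbols. They were selected on their measured counts in KO and WT, with the fold changes of that comparison known, so their differences between the groups are described here without a p-value.

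A2780 is an established human ovarian carcinoma cell line. RNA-seq was run on 3 libraries of A2780 cells with WT CDK12 and on 3 libraries of A2780 CDK12 KO cells, grown in the same medium without any drug or other agent in the labels. The KO cells are a single clone, obtained after successive rounds of CRISPR/Cas9 transfection against exon 1 of CDK12 and selection. Properties of that clone and the loss of CDK12 therefore cannot be told apart, and nothing in the labels states that the libraries of a group came from separate cultures, so the spread between them may be technical.

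Matrix metalloproteinases are zinc-dependent endopeptidases that cleave extracellular matrix and many other proteins outside the cell. Most are secreted as inactive proenzymes and are opened by other proteases, while the membrane types are cut inside the cell by proprotein convertases and stay anchored at the surface. TIMP proteins block the active enzymes, and the secreted collagenase and stromelysins of 11q22 are textbook targets of AP-1 (JUN and FOS dimers) and ETS factors, induced by growth factors and inflammatory cytokines. In carcinomas these enzymes are known for their part in invasion and matrix remodelling.

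The promoters of the members are shown to set a gene of the 11q22 cluster beside the membrane-type genes. RefSeq's promoter table for GRCh38.p14 held 4 of the 10 members: MMP10, MMP14, MMP15 and MMP24. It did not match MMP1, MMP3, WTAPP1, MMP13, MMP2 or MMP16. The 120 bases before the annotated start of each gene are printed 5′ to 3′ on the gene's own strand. The stretches lie at chr11:102780629-102780748 (minus strand, MMP10), chr14:22836465-22836584 (plus, MMP14), chr16:58025634-58025753 (plus, MMP15) and chr20:35226570-35226689 (plus, MMP24). For MMP14, RefSeq's start lies inside the gene as GENCODE places it, so the last bases printed for that gene fall within the GENCODE span. Capitals mark matches to TGANTCA (a loose AP-1-like pattern with any base at N, either strand), TATAAA (the TATA box, gene strand only) and GGGCGG (the GC box, either strand, CCGCCC when reversed).
MMP10: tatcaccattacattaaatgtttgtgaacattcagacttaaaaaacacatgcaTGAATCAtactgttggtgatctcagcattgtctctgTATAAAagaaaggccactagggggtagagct
MMP14: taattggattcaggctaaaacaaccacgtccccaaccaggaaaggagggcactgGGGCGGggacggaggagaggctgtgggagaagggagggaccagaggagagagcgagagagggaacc
MMP15: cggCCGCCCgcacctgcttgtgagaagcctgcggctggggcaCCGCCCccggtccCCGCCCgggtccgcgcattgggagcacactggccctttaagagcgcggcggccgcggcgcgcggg
MMP24: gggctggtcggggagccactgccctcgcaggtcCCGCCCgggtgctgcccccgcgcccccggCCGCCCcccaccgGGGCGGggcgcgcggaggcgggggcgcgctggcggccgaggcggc

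In the MMP10 promoter the TGANTCA match began 67 bases and the TATAAA match 31 bases upstream of the start. In windows of 300 bases, TGANTCA occurred in 7.71% of the 35116 promoters of the table and TATAAA in 7.33%. GGGCGG occurred in 45.0% of them, and the window held 1 match in MMP14, 5 in MMP15 and 3 in MMP24, against 0 in MMP10. Neither TGANTCA nor TATAAA occurred in the windows of the 3 membrane-type genes. The windows also differed in CG dinucleotides: MMP10 had 2, MMP14 10, MMP24 37 and MMP15 39, where the median over all promoters was 14. These matches describe letters in a window and were not tested against the expression values.

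The libraries held 11098400 to 30899045 counts in genes, the smallest being WT replicate 3. A count of 3 in a library corresponded to at most 0.270 CPM (counts scaled per 1e+06 of the library's TMM-scaled total) in WT and at most 0.168 CPM in KO, and such floors cover counting error only. Of the 16198 genes with enough counts to test, 1345 (8.30%) were higher and 1252 (7.73%) lower in KO at an adjusted p under 0.05 with a log2 fold change beyond 1 in size (edgeR's quasi-likelihood test, Benjamini-Hochberg). CDK12 RNA itself was 115 ± 11.1 CPM in WT and 97.9 ± 4.63 in KO (mean ± SD, n = 3), a log2 difference of -0.23 (SE 0.0582, adjusted p = 8.20e-04), so the counts did not separate the genotypes by loss of this RNA, and the counts per gene carry no view of the edited exon. Among markers of ovarian and epithelial carcinoma, KRT18 and KRT8 were present, while CDH1, KRT7, PAX8, WT1 and MUC16 had at most 6 counts in any library and KRT19 at most 11. EPCAM was low and fell from 3.19 ± 0.793 CPM in WT to 2.17 ± 0.0446 in KO, whereas MSLN rose from 1.06 ± 0.330 to 1.73 ± 0.201 CPM. The 10 markers summed to 69.2 to 75.1 CPM in WT and 116 to 121 CPM in KO, most of it from KRT18 (means of 59.9 and 103 CPM). The 10 fibroblast markers summed to 11252 to 11626 CPM in WT and 8668 to 8945 CPM in KO. Most of this came from COL3A1 and COL1A2. COL3A1 was nearly level (6000 ± 148 CPM in WT and 5953 ± 106 in KO, log2 fold change -0.01). COL1A2 fell by less than the fold threshold (4573 ± 67.1 and 2620 ± 56.9 CPM), and THY1 was higher in KO (113 ± 3.98 and 136 ± 7.55 CPM). Past both thresholds, 6 of the 9 tested were lower in KO, while FAP had at most 1 count in any library. The 6 endothelial markers summed to 0.900 to 0.990 CPM in WT and 1.35 to 1.52 CPM in KO, and the 7 leukocyte markers to 0.700 to 1.17 and 0.691 to 1.15 CPM. The part that the decrease in the summed fibroblast markers had in the results was not tested.

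Of the 10 members, 6 were lower in KO past both thresholds and 0 were higher, where 7.73% of all tested genes were called lower, 16.0% called in either direction and 63.9% past the adjusted p alone. Because this contrast chose the members, nothing is read from that count. Only 7 members had enough counts to be tested: MMP1, MMP3, MMP10, WTAPP1, MMP14, MMP15 and MMP16. MMP13, MMP2 and MMP24 did not. The median log2 fold change of these 7 was -7.22, or -2.86 with WTAPP1, which had no count in KO, set at its bound. The groups did not overlap for these 7 genes, 6 of them lower and MMP14 higher in KO, against 66.3% of all tested genes without overlap in either direction.

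MMP1, the interstitial collagenase that opens fibrillar collagen, had the highest level of the family in WT cells. Its gene (ENSG00000196611) spans chr11:102789401-102798160 on the minus strand of GRCh38. It received 19704, 22061 and 8002 counts in the WT libraries and 123, 132 and 81 counts in the KO libraries. On the CPM scale these were 718, 736 and 720 in WT and 5.00, 4.90 and 4.55 in KO. The 3 WT libraries were close to each other and so were the 3 KO libraries, with a wide gap between the groups. The means were 725 ± 9.57 and 4.81 ± 0.238 CPM (SD, n = 3), a fitted log2 fold change of -7.22 (SE 0.0692), or 150-fold lower in KO. MMP1 ranked 111th of the 16198 tested genes by its CPM in WT and 128th by the size of its decrease.

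MMP10 (stromelysin-2), which degrades proteoglycans and several non-fibrillar matrix proteins and can open procollagenases, lies next to MMP1 at chr11:102770502-102780628 on the same strand. It is the 11q22 gene whose promoter is printed above with a match to TGANTCA and a match to TATAAA. Its counts were 6473, 6662 and 2450 in WT and 24, 22 and 15 in KO. In CPM these were 236, 222 and 220 in WT against 0.976, 0.816 and 0.842 in KO, so no KO library came near a WT library. The means of 226 ± 8.54 and 0.878 ± 0.0855 CPM lay 258-fold apart, and the fitted log2 fold change was -8.00 (SE 0.0913).

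MMP3 (stromelysin-1), a protease of similar substrates that also activates proMMP1, lies on the other side of MMP1 at chr11:102835801-102843609, again on the minus strand. It had 3010, 3143 and 1236 counts in WT and 12, 13 and 9 counts in KO. Its CPM were 110, 105 and 111 in WT and 0.488, 0.482 and 0.505 in KO, which was a tight pair of groups. The means of 109 ± 3.35 and 0.492 ± 0.0119 CPM gave a level 221-fold lower in KO, and the fitted log2 fold change was -7.77 (SE 0.105). In KO all 3 genes were still detected in every library. The KO level was 0.664% of WT for MMP1, 0.453% for MMP3 and 0.388% for MMP10. Of 2348 tested genes at 100 CPM or more in WT, 18 were at or below 1% of WT in KO, and MMP1, MMP3 and MMP10 were among those 18; this 1% limit was set after the values were seen.

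The 3 genes kept roughly their order but not their exact proportions. The ratio of MMP1 to MMP10 counts was 3.04, 3.31 and 3.27 in the WT libraries and 5.13, 6.00 and 5.40 in the KO libraries, so the KO values were all above the WT values. The ratio of MMP10 to MMP3 counts was 2.15, 2.12 and 1.98 in WT and 2.00, 1.69 and 1.67 in KO, where the groups overlapped. The KO ratios rest on counts of 9 to 132 per gene and library. MMP10 and MMP3 are near relatives, and 22 of the 1685 windows of 75 bases (the read length) in the longest coding MMP10 transcript were also found in that of MMP3, so a small part of their reads could not be assigned to 1 gene. MMP1 shared no such window with MMP3, MMP8, MMP10, MMP12 or MMP13.

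WTAPP1, a transcribed processed pseudogene of WTAP, is the member that runs against the rest of the cluster. It spans chr11:102746968-102836766 on the plus strand, so MMP10 and MMP1 lie wholly within it on the opposite strand. It had 31, 44 and 12 counts in WT and 0 in each KO library. At 1.13, 1.47 and 1.08 CPM in WT (1.23 ± 0.211) it was at least 7.28-fold lower in KO, measured against the highest floor of 3 counts in a KO library. Its fitted log2 fold change of -7.87 (SE 0.731) depends on the prior count added to the zeros. Of its 3331 exon bases, 223 are shared with MMP1 exons, 32 with MMP3 exons and 0 with MMP10 exons. The library kit kept strand, but the strand setting of the counting is not given in the sources used here. Among 148 genes lying wholly inside exons of an opposite-strand gene with at least 10000 counts, 97 had at least 1 count, with 4151 counts in total. HTSeq in its default mode would set such reads aside if strand were ignored. These genes were placed by GENCODE release 44, and the annotation used for the counting is not given, so the check does not settle the strand setting. How much of the WTAPP1 count came from MMP1 reads of the wrong strand was not tested.

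MMP13 (collagenase-3) and MMP2 (gelatinase A) were at or near 0 in both groups. MMP13, at chr11:102942995-102955732 at one end of the cluster, had 0, 0 and 1 counts in WT and 2, 1 and 3 in KO. These counts are at or under the floor, so no fold is given. MMP2, at chr16:55389700-55506691 on the plus strand, had 0 counts in all 6 libraries, which allows up to 0.270 CPM in WT and 0.168 CPM in KO. MMP2 degrades type IV collagen and gelatin and is the proenzyme that MMP14 opens at the cell surface.

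MMP14 (MT1-MMP), the membrane-type enzyme that cleaves collagen at the cell surface, was the member with nearly the same level in both groups. It lies at chr14:22836560-22849041 on the plus strand. Its counts were 1804, 2098 and 711 in WT and 1764, 2004 and 1297 in KO. Scaled to CPM these were 65.8, 70.0 and 64.0 against 71.7, 74.4 and 72.8, so every KO library was above every WT library by a small step. The means of 66.6 ± 3.08 and 73.0 ± 1.33 CPM differed 1.10-fold, with a fitted log2 fold change of 0.13 (SE 0.0526), far from the fold threshold.

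MMP15 (MT2-MMP) was intermediate. Its gene is at chr16:58025754-58046901 on the plus strand, downstream of the GC-rich promoter printed above. It had 875, 962 and 331 counts in WT and 260, 256 and 159 in KO, or 31.9, 32.1 and 29.8 CPM against 10.6, 9.50 and 8.92 CPM. The groups stood clearly apart, and MMP15 was 3.23-fold lower in KO (31.3 ± 1.28 and 9.66 ± 0.835 CPM, log2 fold change -1.69, SE 0.0780).

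MMP16 (MT3-MMP), at chr8:88032011-88328025 on the minus strand, had 142, 167 and 47 counts in WT and 55, 45 and 42 in KO. Its CPM of 5.18, 5.57 and 4.23 in WT exceeded the 2.24, 1.67 and 2.36 of the KO libraries in every pair. The mean in KO was 2.39-fold lower (log2 fold change -1.32, SE 0.159), the smallest decrease among the 6 lower members. MMP24 (MT5-MMP), known mainly from neural tissue, lies at chr20:35226690-35276998. It had 6, 9 and 1 counts in WT and 4, 8 and 9 in KO, and the groups overlapped at 0.203 ± 0.106 and 0.322 ± 0.173 CPM.

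To compare levels between the members, CPM were divided by the length of the merged exons in kilobases. In WT the order was MMP1 at 265 ± 3.50 CPM per kilobase, MMP10 at 129 ± 4.85, MMP3 at 58.6 ± 1.81, MMP14 at 14.4 ± 0.665 and MMP15 at 7.39 ± 0.303. MMP16 and WTAPP1 followed at 0.412 ± 0.0569 and 0.368 ± 0.0633, which overlapped, and MMP24, MMP13 and MMP2 were lowest. In KO the order of the members was different. MMP14 came first at 15.8 ± 0.288 CPM per kilobase, then MMP15 at 2.28 ± 0.197, MMP1 at 1.76 ± 0.0870, MMP10 at 0.499 ± 0.0486, MMP3 at 0.265 ± 0.0064 and MMP16 at 0.172 ± 0.0303. The libraries of neighbours down to MMP16 did not overlap in KO, and MMP24 at 0.0735 ± 0.0394 and MMP13 at 0.0338 ± 0.0236 did. Outside the members, MMP17 was at 5.56, 5.96 and 5.04 in the KO libraries, above MMP15 in each. MMP11 was at 2.19, 2.23 and 2.53 there, which overlapped MMP15 and lay above MMP1.

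The summed level of all 23 MMP genes was 481 ± 4.87 CPM per kilobase in WT and 29.0 ± 0.521 in KO. MMP1, MMP10 and MMP3 made up 93.8 ± 0.172% of this sum in WT and 8.71 ± 0.365% in KO. MMP1 alone held 55.0 ± 0.950% in WT and 6.07 ± 0.235% in KO. The membrane types (MMP14, MMP15, MMP16, MMP17, MMP24 and MMP25) held 5.62 ± 0.186% in WT and 82.5 ± 0.790% in KO, although their own sum was 27.1 ± 1.16 in WT and 23.9 ± 0.658 in KO. MMP14 alone accounted for 2.99 ± 0.133% of the WT sum and 54.5 ± 0.896% of the KO sum. The family's RNA was thus mostly that of secreted 11q22 enzymes in WT and mostly that of membrane-type enzymes in KO, while the summed level of the membrane types was lower in KO by a small step, without overlap.

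The other 14 MMP genes were examined for similar decreases. Of these, 8 had at most 3 counts in any library, 4 of them 0 throughout, and 2 were tested. Of these 2, 0 were called by edgeR, voom or DESeq2, and 1 was at an unadjusted p under 0.05 in edgeR's test. MMP11 (stromelysin-3) was 11.9 ± 0.372 CPM in WT and 11.9 ± 0.963 in KO. Its log2 fold change was -0.00 (SE 0.0887, adjusted p = 0.998), and the sign turned under several alternatives, RLE and upper-quartile scaling among them. MMP17 (MT4-MMP) was 19.2 ± 3.56 and 22.1 ± 1.86 CPM, a log2 fold change of 0.20 (SE 0.0928, adjusted p = 0.0601). MMP12 (macrophage elastase), which lies in the cluster beyond MMP3, had 5, 8 and 2 counts in WT and none in KO, which is at least 1.25-fold lower. MMP25 had 2, 2 and 0 counts in WT and 10, 7 and 3 in KO. Its pooled ratio between the groups was 4.94 (95% exact counting interval 1.65 to 19.9). A pooled ratio takes each group's summed counts over its summed TMM-scaled totals, the higher group over the lower. MMP21 had 4 to 10 counts and MMP28 1 to 4 in every library, with overlapping groups.

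The surroundings of the cluster were examined next. From MMP7 to MMP13 the 9 MMP genes of 11q22 span chr11:102520508-102955732, and the window was extended by 2 Mb on either side. It held 69 genes of the count table, of which 17 were tested: 4 members and 13 others, 12 of them outside the cluster. These 12 had log2 fold changes from -1.64 to 3.01 with a median of -0.39, against 0.00 over all tested genes. One was called lower, LINC02552 (log2 fold change -1.64, SE 0.150, adjusted p = 2.81e-11), and 1 higher, ARHGAP42, which had 1, 9 and 1 counts in WT and 38, 33 and 21 in KO (log2 fold change 3.01, SE 0.396, adjusted p = 6.79e-08). By the adjusted p alone 8 of the 12 were lower and 1 higher, where 32.0% of all tested genes were lower and 31.9% higher. Past both thresholds the shares of all tested genes were 7.73% lower and 8.30% higher. The nearest tested genes were TMEM123, 50.1 kb from the cluster, at 257 ± 1.67 CPM in WT and 185 ± 8.78 in KO (log2 fold change -0.47, SE 0.0477), and DCUN1D5, 95.0 kb away on the other side, at 107 ± 3.51 and 83.8 ± 4.05 (log2 fold change -0.35, SE 0.0514). Both changed by less than the fold threshold.

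Inside the cluster, 1 gene that is not a member was tested. This unnamed processed pseudogene (ENSG00000256254, chr11:102766801-102767927) lies just past the 3′ end of MMP10 on the same strand. It had 70, 77 and 22 counts in WT and none in KO, a level at least 14.1-fold lower (adjusted p = 6.57e-14). Reads running past the end of MMP10 were not tested as a source of these counts.

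Inhibitors of these enzymes moved in both directions. Of 6 inhibitor genes, 4 were tested, 1 rose and 3 fell past both thresholds (median log2 fold change -1.46). Over all tested genes, 8.30% rose and 7.73% fell this far. TIMP1, which blocks most secreted MMPs, rose 3.79-fold from 318 ± 10.6 to 1207 ± 39.5 CPM (log2 fold change 1.92, SE 0.0494, adjusted p = 5.16e-26). TIMP2, which blocks MMP14 and also takes part in its activation of MMP2, fell from 68.6 ± 1.04 to 21.7 ± 1.32 CPM (log2 fold change -1.66, SE 0.0609, adjusted p = 1.13e-21). RECK, a membrane-anchored inhibitor, fell 2.39-fold (log2 fold change -1.27, adjusted p = 4.27e-13). A2M, the broad protease trap, had 222, 246 and 74 counts in WT and 0 in KO, at least 45.4-fold lower (adjusted p = 1.35e-19). TIMP3 had 1 count in 1 library and TIMP4 none. Set against the enzymes per kilobase, TIMP1 was 0.832 ± 0.0377 times the MMP1 level in WT and 476 ± 30.6 times in KO, and its ratio to the sum of all 23 MMP genes was 0.457 ± 0.0132 in WT and 28.8 ± 0.805 in KO. These ratios are of RNA and say nothing of the amount of active enzyme.

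Genes that open proMMPs include the convertases that cut membrane types and the plasminogen system that starts the activation of secreted ones. Of 5 convertases, all tested, 1 rose past both thresholds (median log2 fold change 0.15), against 8.30% of all tested genes. That gene, PCSK5, had 0, 0 and 1 counts in WT and 31, 31 and 35 in KO. Its pooled ratio, which rests on a single WT count, was 95.8 (95% exact counting interval 16.8 to 3824, adjusted p = 1.92e-10). The other 4 stayed within the fold threshold, 2 of them higher and 1, FURIN, lower by the adjusted p alone. Of 6 plasminogen genes, 3 were tested and 2 fell past both thresholds (median log2 fold change -2.70), against 7.73% of all tested genes. PLAU, the urokinase that makes plasmin, had 66, 73 and 29 counts in WT and 3, 0 and 0 in KO. Its pooled ratio was 56.7 (interval 19.1 to 278, adjusted p = 3.55e-13). SERPINE2, an inhibitor of urokinase and other serine proteases, fell 6.67-fold (adjusted p = 7.32e-10).

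**Figure D1:**
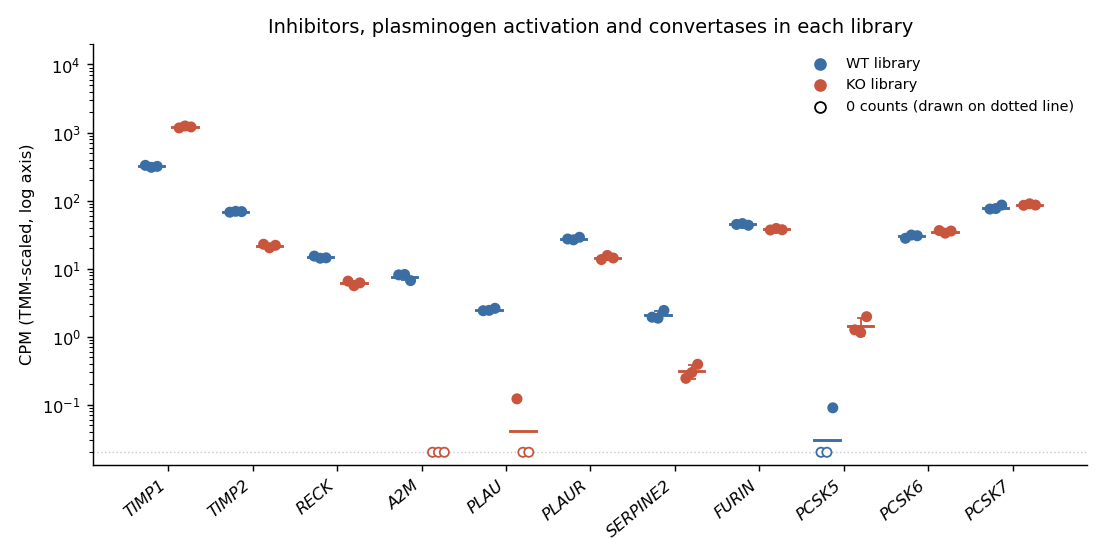
CPM of tested inhibitors, plasminogen system genes and proprotein convertases in each WT (blue) and KO (red) library on a log axis; short lines are means, bars 1 SD where every library of the group had a count, and open circles on the dotted line mark 0 counts. TIMP1 is higher in all KO libraries, while TIMP2, RECK, A2M, PLAU and SERPINE2 are lower in all of them.

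A list of 23 transcription factors held AP-1 and ETS factors, the classes known to act on MMP1, MMP3 and MMP10, with RUNX1, RUNX2 and CEBPB added. Of these, 18 were tested and 3 rose past both thresholds, all from the AP-1 and ETS classes, against 8.30% of all tested genes. By the adjusted p alone 11 were higher, RUNX1 and CEBPB among them, and 4 lower, against 31.9% and 32.0% of all tested genes, and the median log2 fold change was 0.45. The 3 were ETV1 (log2 fold change 1.78, adjusted p = 2.17e-22), JUN, the central AP-1 subunit (1.42, adjusted p = 6.77e-16), and ATF3 (1.15, adjusted p = 6.87e-09). Of 26 inducing ligands and receptors, 19 were tested, 1 rose and 4 fell (median -0.05), against 8.30% and 7.73% of all tested genes. TGFA, a ligand of EGFR, rose 7.15-fold (adjusted p = 3.29e-22), whereas FGF2 fell 8.38-fold (adjusted p = 1.71e-22), PDGFRA 6.15-fold (adjusted p = 2.25e-26), PDGFRB 3.73-fold (adjusted p = 9.53e-14) and IL1RAP, the shared chain of the interleukin-1 receptor, 2.62-fold (adjusted p = 4.78e-07).

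Of 30 ADAM and ADAMTS proteases, which share the metalloproteinase fold, 20 were tested, 1 rose and 5 fell (median log2 fold change -0.09). The shares of all tested genes past both thresholds were 8.30% higher and 7.73% lower. ADAMTS4, an aggrecanase, rose 22.6-fold (adjusted p = 3.85e-20). ADAMTS1 fell 13.8-fold (adjusted p = 7.60e-27), ADAM19 5.99-fold (adjusted p = 8.05e-21) and ADAMTS2, the procollagen N-proteinase, 5.93-fold (adjusted p = 1.73e-13). ADAMTS6 had 13, 13 and 7 counts in WT and 1, 3 and 2 in KO, a pooled ratio of 5.57 (interval 2.30 to 16.3, adjusted p = 1.37e-04). These 4 decreases were all smaller than those of MMP1, MMP3 and MMP10.

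Of 22 matrix substrates, 17 were tested, 4 rose and 6 fell past both thresholds (median log2 fold change -0.55). Among all tested genes these shares were 8.30% and 7.73%. The large decreases were in NID1 (nidogen, 168-fold, adjusted p = 7.22e-30), VCAN (versican, 72.7-fold, adjusted p = 1.21e-33), COL1A1 (5.17-fold, adjusted p = 2.98e-27) and DCN (decorin, 0 counts in KO, at least 4.49-fold lower, adjusted p = 1.03e-08). LAMB3, a chain of laminin-332, had 1, 4 and 1 counts in WT and 165, 207 and 122 in KO (log2 fold change 6.26, SE 0.275, adjusted p = 1.66e-19). BGN (biglycan) had 0 counts in WT and 15, 16 and 7 in KO, at least 1.97-fold higher (adjusted p = 2.31e-07). FBN1 and HSPG2 rose by 1.08 and 1.02 on the log2 scale (adjusted p = 7.15e-17 and 5.75e-17), and both were below the fold threshold without WT replicate 1, at 0.996 and 0.948. Without KO replicate 2, BGN had too few counts to be tested and 3 of these 4 genes were called.

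Tested genes outside the members were ranked by likeness to a member, using the root mean square difference in log2 CPM over the 6 libraries. For MMP1 the nearest were IGF2BP1 (difference 0.422; 490 ± 40.3 CPM in WT and 4.26 ± 0.196 in KO), F2R (0.777), VCAN (1.00), LMO4 (1.08) and FERMT2 (1.13). For MMP15 the nearest were GNG4 (0.0974; 31.7 ± 1.01 and 9.34 ± 0.320 CPM), RIMS4 (0.129), UBASH3B (0.138), BBS7 (0.139) and GPR161 (0.159). The 5 genes nearest to MMP15 were closer to it than any tested gene outside the members was to MMP1.

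The differences of the 7 tested members kept their direction across the ways of processing that were tried. Over the alternatives, the log2 fold change ran from -7.25 to -7.19 for MMP1, from -8.09 to -7.87 for MMP10 and from -7.80 to -7.55 for MMP3. It ran from 0.10 to 0.16 for MMP14, from -1.77 to -1.63 for MMP15 and from -1.40 to -1.17 for MMP16. For WTAPP1, with 0 counts in KO, it ran from -8.06 to -3.96.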

How the data were processed

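RNA-seq was available for 3 A2780 WT and 3 A2780 CDK12 KO libraries, grouped by the genotype in the labels. The authors deposited raw counts per gene; the submitters' processing notes name FastQC, STAR, HTSeq and GRCh38, and the tool versions, annotation release and strand setting are not given in the sources used here. The kit kept strand, and reads were single-end. Identifiers were matched without version to GENCODE release 44 (56321 of 60483), which gave positions and exon lengths. All 6 columns of counts were used, and 0 were left out.

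The comparison of KO and WT ran under R 4.3.3 and edgeR 4.0.16, using filterByExpr (minimum count 10, minimum total 15), TMM scaling and the two-sided quasi-likelihood test, with Benjamini-Hochberg adjustment over 16198 genes. Called genes had an adjusted p below 0.05 together with a log2 fold change beyond 1 in size. The p-values measure only the spread between these libraries. CPM used TMM-scaled totals, and a fold against a group at 0 in every library used the highest floor of 3 counts in that group. Reads carried no molecular identifiers. Alternatives used limma 3.58.1 (voom), DESeq2 1.42.0, other scalings and filters, and each library left out in turn. For the members' log2 fold changes, a prior count of 2 and counts thinned at random to the smallest library's total were also used. The scripts were tested on simulated data.

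The members and the gene lists were chosen with earlier results of these data known. The text names all members, other MMPs and inhibitors with more than 3 counts in a library, up to 4 called genes per direction in each other list, called genes and nearest neighbours in the 11q22 window, CDK12 and the 5 genes most like MMP1 and MMP15. A result on 1 gene is not reported here. Overlaps of reads between genes and the strand check were added after the data were seen.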

Additional observations from a re-analysis of the deposited data

How the results depend on the processing

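No paired analysis was possible because the labels number the libraries from 1 to 6 and share no replicate number between WT and KO. None of the 7 tested members changed sign under any alternative in which it had a fitted value. Members past both thresholds were not counted with the prior count of 2 or the thinned counts. As above, nothing is read from that count, because this contrast chose the members. Under each other alternative 6 members were lower past both thresholds, except that 4 were with at least 10 counts required in every library, a filter that leaves MMP3 and WTAPP1 untested. That filter also left fewer genes to call: 568 higher and 684 lower over all genes (545 and 684 of them shared with the 1345 and 1252 above), 7 higher and 13 lower in the related lists (against 11 and 20), and 0 higher and 1 lower around the cluster (against 1 and 2). By the adjusted p alone, 5165 genes were higher and 5188 lower. Without any filter, 1 other MMP was called higher (MMP25) and 1 lower (MMP12), and 2 genes were higher and 4 lower around the cluster. DESeq2 called 1265 higher and 1235 lower, and voom 1342 and 1248. Leaving out 1 library at a time gave 1377 to 1502 higher and 1269 to 1369 lower genes. The log2 fold change of MMP11, -0.00023, was 0.00272 with DESeq2, 0.00033 with RLE scaling, 0.028 with upper-quartile scaling, 0.00105 without a filter, 0.023 with the filter on every library and from -0.0582 to 0.0361 with a library left out; none of these was called. MMP13 and MMP24 had fewer than 10 counts in every library, and a difference in them was not detectable at this depth.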
